A study of Mus musculus with 2 samples.

Results

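Mbp, Pmp22, Prx and Mag are genes of the Schwann cell, the glial cell that wraps the axons of peripheral nerve in myelin. Their transcripts were followed in 2 single-cell RNA libraries of macrophages sorted from sciatic nerve, as 4 of the 54838 genes in the count files. The genes were chosen by name as Schwann cell genes, with earlier results of these data known. Each was measured in cells, taken as barcodes with at least 500 unique molecular identifiers (UMIs) and 200 genes, and in barcodes with 10 to 100 UMIs. A UMI stands for 1 captured RNA molecule. Barcodes with so few UMIs mostly mark droplets that held no cell, and their UMIs are called free RNA here.

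The mice were Flt3-Cre LSL-YFP fl/fl males aged 10 to 12 weeks, in which Cre made under the control of Flt3 switches on YFP for good in a cell and in its progeny. YFP+ cells had therefore passed through a stage with Flt3 expression, which the study reads as descent from hematopoietic stem cells. YFP- cells did not show YFP, and the study reads them as apparently embryonic in origin. All mice of both groups carried the same alleles. Sciatic nerves of 19 mice by the labels (a legend of the study gives a slightly lower number) were pooled, CD64+ CD45int macrophages were sorted from the pool into YFP- and YFP+ cells, and each kind gave 1 library. With 1 library of pooled animals in each group, no test between the groups was possible, and the intervals given are 95% intervals that cover counting error only.

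The YFP- library held 1045 cells with a median of 2233 UMIs and 2418044 UMIs in all, and the YFP+ library held 4053 cells with a median of 1484 UMIs and 6747554 UMIs in all. Free RNA came to 909646 UMIs in 56346 barcodes of the YFP- library and 2034293 UMIs in 85373 barcodes of the YFP+ one. At least 1 UMI of 10 macrophage markers was present in 99.5% of the cells of each library. The libraries had 7 cell barcodes in common.

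Myelin is a stack of Schwann cell membrane, wound around the axon and compacted. Mbp encodes myelin basic protein, which holds the cytoplasmic faces of the compacted membrane together, and Pmp22 encodes a membrane protein of compact peripheral myelin. Prx encodes periaxin, a scaffold protein of the outer Schwann cell membrane, and Mag encodes a sialic acid-binding adhesion protein of the innermost membrane, next to the axon. The sort selects for surface proteins of macrophages, cells that are not known to make myelin but take up its debris. The Mbp gene also gives rise to the golli transcripts of immune and other cells, and Pmp22 is transcribed in many cell types. Counts per gene cannot tell these transcripts apart.

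The 250 bases before a transcription start are shown for Pmp22, Prx and Mag. No entry for Mbp was present in the source used. The bases are printed 5′ to 3′ from the RefSeq promoter table of GRCm38.p6, which lists 4 starts for Pmp22, 1 for Prx and 3 for Mag. For each gene only the start nearest to that of the GENCODE M21 gene is shown, which for Mag lay 10 bases inside the gene. Capitals mark matches, on either strand, to ACAAAG or ACAATG, letters that Sox proteins bind, and to GTGGG, which lies in the binding site of Egr proteins. Sox10 and Egr2 are the transcription factors that drive myelin genes in Schwann cells.
Pmp22 (plus strand, chr11:63128732-63128981): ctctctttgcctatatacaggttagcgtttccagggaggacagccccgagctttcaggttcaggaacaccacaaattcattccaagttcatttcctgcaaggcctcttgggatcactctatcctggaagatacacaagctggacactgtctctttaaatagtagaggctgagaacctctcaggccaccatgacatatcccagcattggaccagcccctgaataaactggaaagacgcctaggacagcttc
Prx (plus strand, chr7:27499074-27499323): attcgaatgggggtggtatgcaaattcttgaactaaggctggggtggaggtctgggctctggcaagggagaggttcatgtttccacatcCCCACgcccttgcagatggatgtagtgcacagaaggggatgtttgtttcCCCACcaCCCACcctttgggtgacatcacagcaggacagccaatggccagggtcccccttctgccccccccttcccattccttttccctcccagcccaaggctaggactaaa
Mag (minus strand, chr7:30914864-30915113): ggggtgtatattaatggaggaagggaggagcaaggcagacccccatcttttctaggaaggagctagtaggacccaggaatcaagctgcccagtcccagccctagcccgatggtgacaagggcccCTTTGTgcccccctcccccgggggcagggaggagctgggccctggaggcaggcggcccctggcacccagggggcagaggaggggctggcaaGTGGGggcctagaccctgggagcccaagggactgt
The Pmp22 stretch held no match, that of Prx held 3 matches to GTGGG, and that of Mag held 1 match to the Sox letters and 1 to GTGGG. Of 32851 promoter stretches of this length in the table, 25.2% held a match to the Sox letters and 56.3% a match to GTGGG. A match is only a match of letters.

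Among these 3 genes, Pmp22 (ENSMUSG00000018217) lies at chr11:63128982-63159547 on the plus strand of GRCm38. Prx (ENSMUSG00000053198) lies at chr7:27499324-27520214 on the plus strand, and Mag (ENSMUSG00000036634) lies at chr7:30899176-30914873 on the minus strand. All are annotated as protein-coding.

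Over all cells summed, Mbp, Pmp22 and Prx were each lower in cells than in free RNA of the same library. None of 10 macrophage markers differed by 2-fold between the same places. Mbp was measured at 131 CPM (UMIs of the gene per 1000000 UMIs) in YFP- cells, with an interval of 117 to 146, and at 1603 CPM in the free RNA of that library, with an interval of 1522 to 1687. For YFP+ it was measured at 165 CPM in cells, with an interval of 156 to 175, and at 2835 CPM in free RNA, with an interval of 2762 to 2909. The level in cells was thus 8.15% of the level in free RNA in the YFP- library and 5.83% in that of YFP+. The log2 ratio of cells over free RNA was -3.61 (interval -3.79 to -3.43) for the YFP- library and -4.09 (interval -4.18 to -4.00) for the YFP+ library.

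Prx showed the same order. It was counted at 18 UMIs in YFP- cells and 72 UMIs in YFP+ cells, or 7.44 CPM (interval 4.41 to 11.8) and 10.7 CPM (interval 8.35 to 13.4). Its level in free RNA was 64.9 CPM (interval 49.4 to 83.7) in the YFP- library and 115 CPM (interval 100.3 to 130.2) in that of YFP+. The log2 ratio of cells over free RNA was -2.96 (interval -3.71 to -2.24) for the YFP- library and -3.31 (interval -3.68 to -2.94) for the YFP+ library. Prx overlaps an annotated gene on the opposite strand, and the sources do not state how strand was used in counting.

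Pmp22 had a smaller gap between cells and free RNA than Mbp or Prx. It was measured at 347 CPM in YFP- cells (interval 324 to 371) and 837 CPM in the free RNA of that library (interval 778 to 898). For YFP+ the level was 313 CPM in cells (interval 300 to 327) and 1146 CPM in free RNA (interval 1100 to 1193). The level in cells came to 41.5% of the level in free RNA in the YFP- library and 27.3% in that of YFP+. Its log2 ratios were -1.27 (interval -1.41 to -1.12) and -1.87 (interval -1.95 to -1.78), and their intervals did not overlap those of Mbp or Prx in the same library.

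Mag was rare in both places. It was counted at 20 UMIs in YFP- cells and 58 UMIs in YFP+ cells, or 8.27 CPM (interval 5.05 to 12.8) and 8.60 CPM (interval 6.53 to 11.1). Free RNA held 14 UMIs, or 15.4 CPM (interval 8.41 to 25.8), in the YFP- library and 26 UMIs, or 12.8 CPM (interval 8.35 to 18.7), in that of YFP+. Here the log2 ratios of cells over free RNA were -0.82 (interval -1.78 to 0.18) and -0.52 (interval -1.16 to 0.14). Over all cells, a difference between cells and free RNA was not detectable for Mag at this depth.

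**Figure D1:**
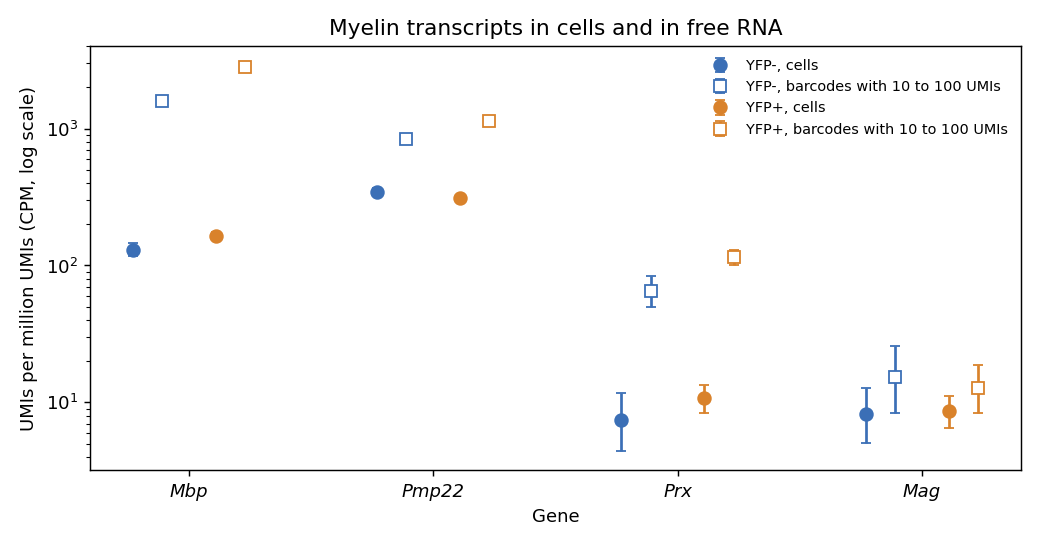
Level of each myelin transcript in CPM on a log axis, in cells (filled circles) and in barcodes with 10 to 100 UMIs (open squares) of the YFP- library (blue) and the YFP+ library (orange), with 95% Poisson intervals. Cells sit below free RNA for Mbp, Pmp22 and Prx in both libraries, while for Mag the cells sit at 8.27 and 8.60 CPM and the intervals of cells and free RNA overlap.

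A small share of all genes had such an excess in free RNA, among them genes of other cells of the nerve. Among genes with at least 50 UMIs in cells and free RNA together, 2.72% of 6798 genes in the YFP- library and 2.2% of 9561 genes in that of YFP+ were at least 2-fold higher in free RNA than in cells. Mbp, Pmp22 and Prx passed that fold in both libraries. Mag reached 50 UMIs only in the YFP+ library, where it did not pass the fold. Ordered by the log2 ratio of free RNA over cells, Mbp was first of the 6798 genes of the YFP- library and the third of the 9561 genes of the YFP+ one. Prx was at place 9 and place 15, Pmp22 at place 74 and place 81, and Mag at place 1284 in the YFP+ library. The median gene had a log2 ratio of 0.10 in the YFP- library and 0.06 in that of YFP+.

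Most of the other myelin genes with enough UMIs passed the fold too. Of a list of 14, 7 reached 50 UMIs in the YFP- library and 6 of these were at least 2-fold higher in free RNA, with a median log2 ratio of cells over free RNA of -1.91. In the YFP+ library, 10 of the 14 reached 50 UMIs and 10 passed the fold, with a median of -2.80. Cnp, an enzyme of non-compact myelin, was the gene below the fold in YFP-, with a log2 ratio of -0.63. Mal, a proteolipid of myelin membrane, was measured at 11.6 CPM in YFP- cells and 46.2 CPM in the free RNA of that library, and Ncmap, a protein of non-compact myelin, at 7.03 CPM and 56.1 CPM.

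Of 10 genes of Schwann cell identity, 3 reached 50 UMIs in the YFP- library and 4 in that of YFP+, of which 2 and 3 were at least 2-fold higher in free RNA. S100b, a calcium-binding protein of Schwann cells, was measured at 13.2 CPM in YFP- cells and 124 CPM in free RNA, and at 16.0 CPM and 211 CPM in the YFP+ library. The exception in both libraries was Egr2, which macrophages also transcribe, at 35.2 CPM in YFP- cells and 38.5 CPM in free RNA, and at 51.9 CPM and 49.6 CPM in the YFP+ library. Genes of non-myelinating Schwann cells were scarce. The 7 genes together were measured at 0.414 CPM in YFP- cells, where 6 of them were at 0, and at 1.93 CPM in YFP+ cells, where 3 were at 0. In free RNA they were at 13.2 CPM (interval 6.82 to 23.0) and 13.8 CPM (interval 9.15 to 19.9).

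Macrophage markers served as the contrast. None of the 10 passed the fold in either direction, with a median log2 ratio of cells over free RNA of -0.12 in the YFP- library and -0.04 in that of YFP+. C1qa, a chain of the complement component C1q made by resident macrophages, was measured at 6161 CPM in YFP- cells and 6849 CPM in free RNA, and at 6101 CPM and 6249 CPM in the YFP+ library. Single markers did differ by less than the fold. Cx3cr1, a chemokine receptor of resident macrophages, had log2 ratios of cells over free RNA of 0.54 (interval 0.30 to 0.79) and 0.80 (interval 0.64 to 0.95), and Trem2, a lipid receptor, of -0.47 (interval -0.65 to -0.29) and -0.42 (interval -0.53 to -0.31).

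Lists of other nerve cells also had genes with an excess in free RNA. Of the fibroblast list, 1 of 1 gene with at least 50 UMIs passed the fold in YFP- and 3 of 6 in YFP+, and of the mural list 2 of 3 did so in YFP+. Of the endothelial list, the 1 gene with at least 50 UMIs did not pass it in either library. That gene was at 82.3 CPM in YFP- cells and 52.8 CPM in YFP+ cells, where the whole list summed to 93.1 and 64.8 CPM. The other genes of the list were too scarce for this count, so it leaves endothelial RNA largely unmeasured. Acta2, the actin of smooth muscle, was at 48.3 CPM in YFP+ cells and 148 CPM in free RNA. The excess was thus not particular to Schwann cell genes.

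The level of Mbp, Pmp22 and Prx differed between classes of barcodes by UMI total. Mbp was at 1603 CPM in YFP- barcodes with 10 to 100 UMIs and at 6617 CPM (interval 6093 to 7174) in those with more than 100 and fewer than 500 UMIs. It then stood at 1205 CPM in cells with 500 to under 1000 UMIs, 129 CPM in cells with 1000 to under 2000 UMIs and 66.1 CPM (interval 55.0 to 78.8) in cells with 2000 UMIs or more. In the YFP+ library the values over the same 5 classes were 2835, 6322, 432, 152 and 108 CPM. Mbp was therefore highest, in both libraries, in barcodes between the free RNA and the cells. The intervals do not cover the spread over cells, and 7 YFP- cells held 166 of the 316 Mbp UMIs in YFP- cells.

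Prx and Pmp22 had the same order of classes up to that peak. Prx was at 315 CPM (interval 209 to 455) in YFP- barcodes of that middle class and at 309 CPM (interval 258 to 367) in those of the YFP+ library. In cells with 500 to under 1000 UMIs Prx was at 61.6 CPM (interval 24.7 to 127) in YFP- and 27.1 CPM in YFP+, against 64.9 and 115 CPM in free RNA. At 1000 to under 2000 UMIs it was at 2.34 CPM (interval 0.059 to 13.0) and 8.70 CPM. In cells with 2000 UMIs or more it was at 5.33 CPM and 7.85 CPM. Pmp22 was at 1834 CPM and 2293 CPM in the middle class. In cells with 500 to under 1000 UMIs it was at 1389 CPM (interval 1181 to 1624) in YFP- and 629 CPM in YFP+. That YFP- value lay above the free RNA of the library, at 837 CPM (interval 778 to 898). It rested on 158 UMIs in 150 cells, and its interval does not cover the spread over cells. Among all YFP- cells, 8 held 300 of the 839 Pmp22 UMIs. How many of these 8 cells lay in this class was not counted. Pmp22 was then at 332 CPM and 270 CPM, and at 287 CPM and 263 CPM in cells with 2000 UMIs or more. The fall of Pmp22 to the deepest cells was smaller than that of Mbp or Prx.

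For Mag no order of the classes was detectable at this depth. In the YFP+ library it was at 12.8, 23.8, 9.05, 9.14 and 8.13 CPM over the 5 classes, and all their intervals overlapped. Of the 20 Mag UMIs in YFP- cells, 18 lay in the 607 cells with 2000 UMIs or more, at 9.59 CPM (interval 5.69 to 15.2). Those cells held 1876425 of the 2418044 UMIs of all genes in YFP- cells. Over all YFP- cells Mag was at 8.27 CPM (interval 5.05 to 12.8).

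**Figure D2:**
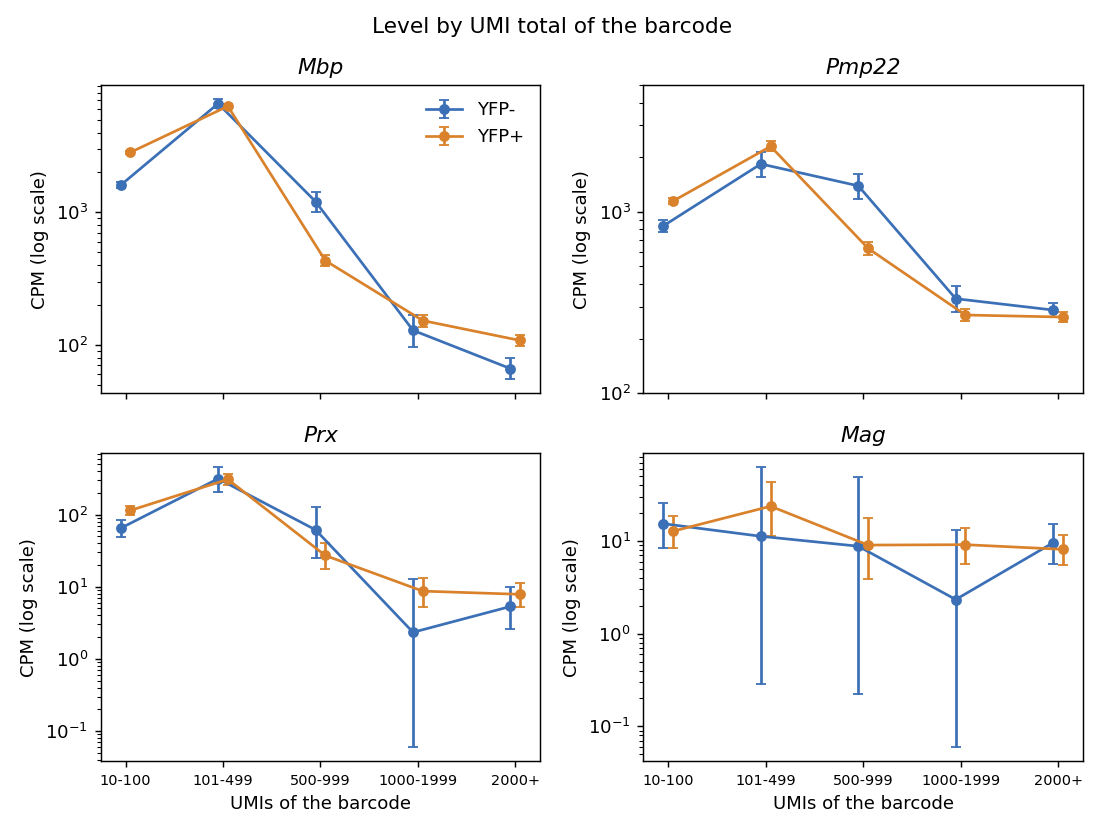
Level of each myelin transcript in CPM on a log axis against the UMI total of the barcode in 5 classes, for the YFP- library (blue) and the YFP+ library (orange), with 95% Poisson intervals; lines join the classes of a library. Mbp peaks at 6617 and 6322 CPM in the class between 100 and 500 UMIs and is lowest in the deepest cells, whereas the intervals of Mag overlap over all classes of a library.

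Over single cells, most held no UMI of a myelin transcript and a few held more than 10. No UMI of Mbp was found in 911 YFP- cells out of 1045 and in 3539 YFP+ cells out of 4053. Mbp was present at 1 or 2 UMIs in 123 YFP- cells and 456 YFP+ cells, and at 3 or more in 11 and 58. The highest count in 1 cell was 35 UMIs in YFP- and 41 in YFP+. The 1% of cells with most Mbp held 58.5% of its UMIs in the YFP- library and 48.4% in that of YFP+. Had UMIs fallen in proportion to the UMI total of each cell, 264 YFP- cells and 942 YFP+ cells would have held Mbp, against 134 and 514 that did.

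Pmp22 was found in more cells and was also uneven. It was present in 359 YFP- cells and 1086 YFP+ cells, where proportion to the UMI total would give 541 and 1556. It stood at 1 or 2 UMIs in 310 YFP- cells and 997 YFP+ cells, and the 1% of cells with most Pmp22 held 38.3% and 37.1% of its UMIs. The highest cells held 137 UMIs in YFP- and 84 in YFP+. The first of these was 16.3% of all Pmp22 UMIs in YFP- cells.

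Prx was found in 10 YFP- cells and 47 YFP+ cells, against 17.8 and 71.2 by proportion, with at most 7 and 6 UMIs in a cell. A single YFP- cell held 38.9% of the Prx UMIs of its library. Mag was found in 19 YFP- cells and 56 YFP+ cells, and proportion to the UMI total would give 19.8 and 57.5. At most 2 UMIs of Mag were found in a cell, in 1 YFP- cell and 2 YFP+ cells. Of the 4 transcripts, Mag was thus the one whose number of positive cells lay near that given by depth.

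**Figure D3:**
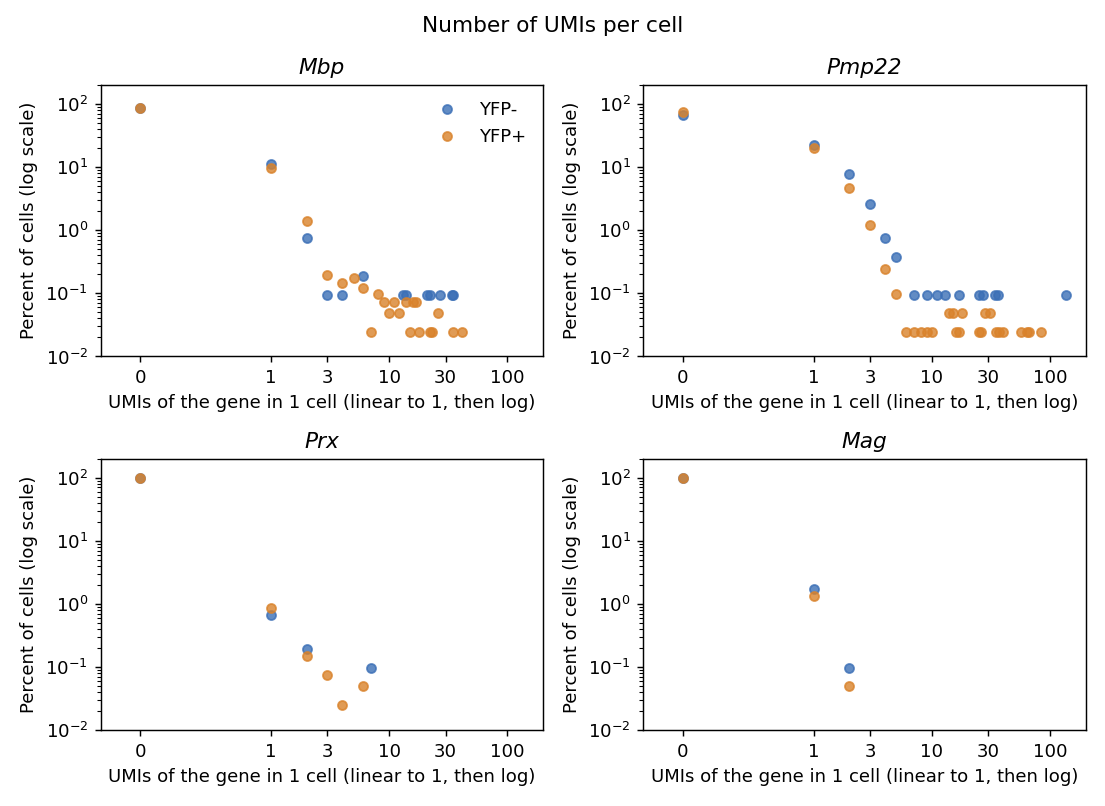
Percent of cells (log axis) against the number of UMIs of the gene in 1 cell (linear to 1, then log) for the YFP- library (blue) and the YFP+ library (orange). Mbp and Pmp22 have a tail of single cells reaching 41 and 137 UMIs, Prx reaches 7 and Mag stops at 2.

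Free RNA barcodes were uneven as well. Mbp was found in 1134 of the 56346 YFP- barcodes with 10 to 100 UMIs and in 4425 of the 85373 of YFP+, where proportion to the UMI total would give 1435 and 5532. Up to 13 UMIs of Mbp in YFP- and 14 in YFP+ were counted in 1 such barcode, and 59 and 270 barcodes held 3 or more. Pmp22 reached 12 and 11 UMIs in 1 barcode, Prx reached 2 in both libraries, and Mag stayed at 1.

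After each cell was thinned to 500 UMIs, which left out no cell, 3.64% of YFP- cells (exact interval 2.59% to 4.96%) and 5.60% of YFP+ cells (interval 4.91% to 6.35%) held a UMI of Mbp. Without thinning the shares were 12.8% and 12.7%, at median depths of 2233 and 1484 UMIs. Had the 500 UMIs all been drawn from free RNA independently of each other, 55.2% and 75.8% of cells would have held Mbp. Such draws do not allow for the unevenness of free RNA over its barcodes. They also take every UMI of a cell as free RNA, so a share below them does not tell where the UMIs came from. For Pmp22 the thinned shares were 10.6% (interval 8.82% to 12.7%) and 9.67% (interval 8.78% to 10.6%), and 34.4% and 26.8% without thinning, against 34.2% and 43.6% from free RNA alone at 500 UMIs.

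For Prx the thinned shares were 0.478% (interval 0.156% to 1.11%) of YFP- cells and 0.592% (interval 0.380% to 0.880%) of YFP+ cells, against 3.19% and 5.57% from free RNA alone. Without thinning they were 0.957% and 1.16%. For Mag they were 0.478% (interval 0.156% to 1.11%) and 0.419% (interval 0.245% to 0.671%), against 0.767% and 0.637%, and 1.82% and 1.38% without thinning. All 8 thinned shares were below the share that such independent draws from free RNA would give, and the intervals of Mag reached it.

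To see where these UMIs lay, cells were grouped by their UMIs of 23 other genes of myelin and Schwann cell identity, without Egr2 and without the 4 transcripts themselves. No such UMI was held by 893 YFP- cells, 1 by 129, 2 by 13 and 3 or more by 10. In YFP+ 3478 cells held none, 470 held 1, 50 held 2 and 55 held 3 or more. The 10 YFP- cells were 0.957% of cells and the 55 YFP+ cells 1.36%. They are called Schwann-positive cells below, as a range of counts and not a cell type. In the YFP+ library 15 of the 55 held 3 or 4 such UMIs, close to the limit, against 1 of the 10 in the YFP- library.

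Most Prx UMIs, and a large share of those of Mbp and Pmp22, lay in the Schwann-positive cells. In the YFP- library these cells held 72.2% of the Prx UMIs, 52.2% of the Mbp UMIs and 36.8% of the Pmp22 UMIs. Those of YFP+ held 66.7%, 41.6% and 35.7%. Mbp was measured at 9844 CPM in the Schwann-positive YFP- cells (interval 8399 to 11466) and at 57.0 CPM (interval 47.1 to 68.5) in YFP- cells with none of these UMIs. In YFP+ it was at 5684 CPM (interval 5178 to 6225) and 82.8 CPM (interval 75.5 to 90.7).

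Prx had the largest share of its UMIs in them, of the 4 transcripts. It was at 776 CPM (interval 413 to 1326) in the Schwann-positive YFP- cells and at 588 CPM (interval 434 to 780) in those of YFP+. In cells with no UMI of the other Schwann cell genes, 1 UMI of Prx was counted in YFP- and 22 UMIs in YFP+, the latter at 3.92 CPM (interval 2.46 to 5.93). Pmp22 was at 18435 CPM and 9248 CPM in the Schwann-positive cells of YFP- and YFP+. In cells with none of these UMIs it was at 219 CPM (interval 199 to 241) and 197 CPM (interval 185 to 209), and 32.7% and 24.9% of those cells held a UMI of it.

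Most Mag UMIs lay elsewhere. Of its UMIs, 80.0% in YFP- and 77.6% in YFP+ were in cells with no UMI of the other Schwann cell genes, which held 83.4% and 83.2% of all UMIs. Its level there was 7.93 CPM (interval 4.54 to 12.9) and 8.02 CPM (interval 5.85 to 10.7). The Schwann-positive cells held 2 and 8 UMIs of Mag, at 119 CPM (interval 14.4 to 431) and 98.0 CPM (interval 42.3 to 193). Mag was therefore higher in the Schwann-positive cells of both libraries, but they held only 10.0% and 13.8% of its UMIs.

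**Figure D4:**
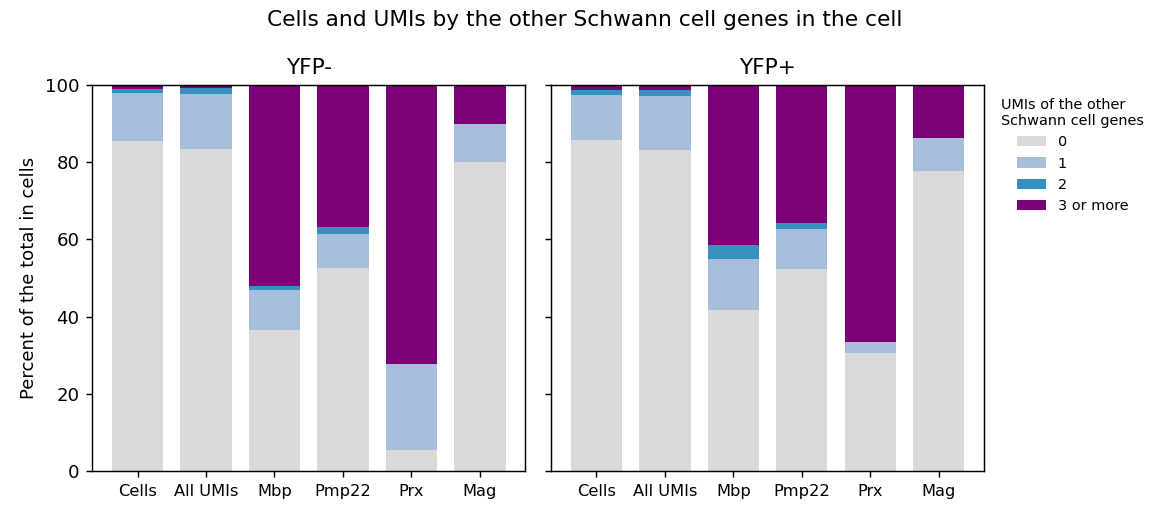
Share in percent of the cells, of all UMIs in cells and of the UMIs of each myelin transcript that lay in cells with 0, 1, 2 or 3 or more UMIs of the other Schwann cell genes, for the YFP- library (left) and the YFP+ library (right). Cells with 3 or more are 0.957% and 1.36% of cells but hold 72.2% and 66.7% of Prx UMIs, while most of the bar of Mag, as of that of all UMIs, is cells with 0.

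In each library the cell with most UMIs of the other Schwann cell genes carried the 4 transcripts together. Most Schwann-positive cells did not, as a UMI of Mag was found in 2 of the 10 in YFP- and 7 of the 55 in YFP+. The YFP- cell with most UMIs of the other Schwann cell genes held 239 of them among 3782 UMIs, with 27 UMIs of Mbp, 137 of Pmp22, 7 of Prx and 1 of Mag. That cell held no UMI of the 10 macrophage markers and 7 of the fibroblast list. The YFP+ cell with most held 134 of them among 2840 UMIs, with 11 UMIs of Mbp, 84 of Pmp22, 3 of Prx and 2 of Mag, and 1 UMI of the macrophage markers.

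As a group the Schwann-positive cells had fewer macrophage UMIs. In the YFP- library 6 of the 10 held a UMI of the macrophage list, with a median of 1 UMI, against a median of 33 in the other cells. Of the YFP+ ones, 46 of the 55 held one, with a median of 7 UMIs against 23. The summed level of the list was 7338 CPM (interval 6099 to 8755) in the Schwann-positive YFP- cells and 15400 CPM in the other YFP- cells, and 10718 CPM (interval 10020 to 11453) and 15669 CPM in YFP+. Their median depth was 1071 and 994 UMIs, against 2251 and 1488. None of them shared a barcode with a cell of the other library. Doublets were not removed, and the part of doublets and of cells other than macrophages in these counts was not tested.

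With a limit set after the values were seen, 7 YFP- cells and 24 YFP+ cells held at least 10 UMIs of Mbp, and 6 and 21 of them were Schwann-positive. At least 10 UMIs of Pmp22 were held by 8 YFP- cells and 22 YFP+ cells, and all of these were Schwann-positive. Of the cells with at least 10 UMIs of Pmp22, 3 in YFP- and 4 in YFP+ also held 3 or more UMIs of the fibroblast list, and none held as many of the endothelial, mural or perineurial lists. The 3 YFP- and 13 YFP+ cells with 3 or more UMIs of the fibroblast list that were not Schwann-positive held 2 and 11 UMIs of Pmp22 and 0 and 3 of Mbp. In these 13 YFP+ cells Pmp22 was at 397 CPM (interval 198 to 710), against 204 CPM in all YFP+ cells that were not Schwann-positive. The 16 YFP+ cells with 3 or more UMIs of the mural list held 3 UMIs of Pmp22, at 94.9 CPM (interval 19.6 to 277), and 2 of Mbp. The 9 YFP- and 12 YFP+ cells with 3 or more of the endothelial list held 1 and 7 of Pmp22 and 1 and 8 of Mbp. In the 10 of these YFP+ cells that were not Schwann-positive, Mbp was at 313 CPM (interval 115 to 681) from 6 UMIs. All YFP+ cells that were not Schwann-positive had Mbp at 97.8 CPM. In the 9 YFP- cells Mbp was at 34.2 CPM (interval 0.866 to 191). Most of the level of the endothelial list in cells came from 1 gene. A cell with 3 or more UMIs of that list need not be endothelial.

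Outside the Schwann-positive cells, the mixture of myelin transcripts differed from that in free RNA. For each 100 UMIs of Mbp, free RNA held 52.2 UMIs of Pmp22 in the YFP- library (exact interval 47.8 to 57.0) and 40.4 in that of YFP+ (interval 38.5 to 42.4). The other cells held 351 (interval 292 to 423) and 208 (interval 190 to 229). Mag stood at 0.960 UMIs for each 100 of Mbp in YFP- free RNA (interval 0.524 to 1.62) and 0.451 in YFP+ free RNA (interval 0.294 to 0.661). In the other cells it stood at 11.9 (interval 6.88 to 19.5) and 7.67 (interval 5.63 to 10.2). Relative to Mbp, Pmp22 and Mag were thus higher in these other cells than in free RNA, with intervals that did not overlap. For Pmp22 this was not particular to them. In the Schwann-positive cells Pmp22 stood at 187 (interval 155 to 228) in YFP- and 163 (interval 145 to 183) in YFP+, also above free RNA.

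For Prx the ratio to Mbp in cells that were not Schwann-positive and in free RNA had overlapping intervals. It stood at 4.05 UMIs for each 100 of Mbp in YFP- free RNA (interval 3.06 to 5.25) and 4.04 in YFP+ free RNA (interval 3.53 to 4.61), and at 3.31 (interval 1.06 to 7.90) and 3.68 (interval 2.34 to 5.53) in the cells that were not Schwann-positive. In the Schwann-positive cells it stood at 7.88 (interval 4.11 to 13.9) in YFP- and 10.3 (interval 7.52 to 13.9) in YFP+, the latter with an interval above that of free RNA. Mag stood at 1.21 (interval 0.146 to 4.45) and 1.72 (interval 0.740 to 3.43) in these cells.

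In cells that were not Schwann-positive, Mbp had a level of 62.9 CPM for YFP- and 97.8 for YFP+, which was 3.92% and 3.45% of the level in free RNA. Prx was at 2.08 CPM and 3.60 CPM, or 3.21% and 3.14% of free RNA, with 5 and 24 UMIs. Pmp22 was at 221 CPM and 204 CPM, or 26.4% and 17.8%, and Mag at 7.50 CPM in both libraries, or 48.7% and 58.7%. The log2 ratio of Mag over free RNA was then -0.95 (interval -1.93 to 0.07) in YFP- and -0.70 (interval -1.34 to -0.02) in YFP+. Only the YFP+ interval excluded no difference, and narrowly. How much of each transcript came from free RNA in the droplet was not tested.

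**Figure D5:**
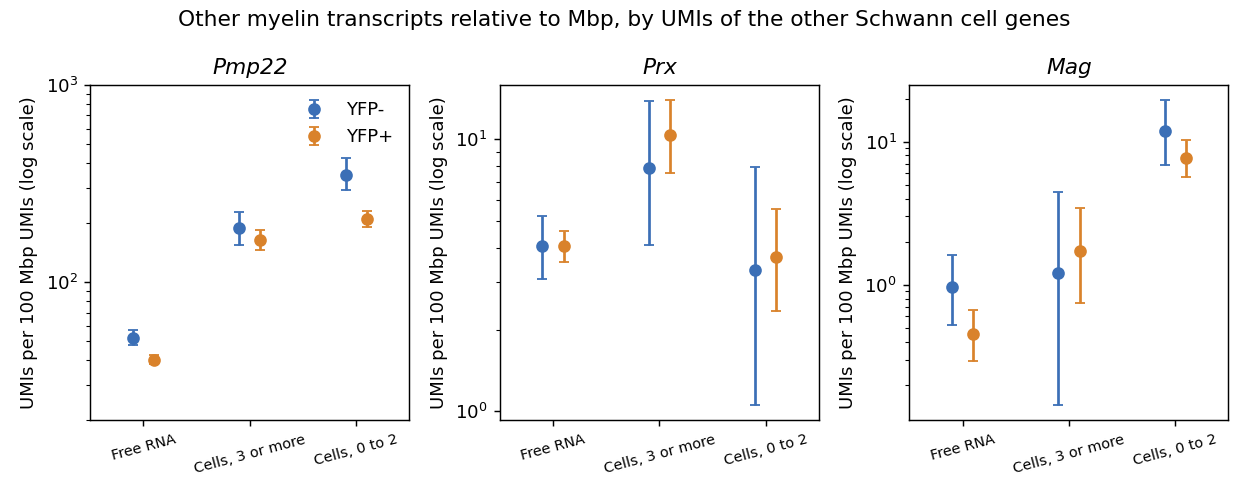
UMIs of Pmp22, Prx and Mag for each 100 UMIs of Mbp (log axis) in free RNA, in cells with 3 or more UMIs of the other Schwann cell genes and in cells with 0 to 2, for the YFP- library (blue) and the YFP+ library (orange), with exact 95% intervals. Pmp22 and Mag are higher in cells with 0 to 2 than in free RNA, at 351 and 208 and at 11.9 and 7.67, while Prx is at 3.31 and 3.68 against 4.05 and 4.04.

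Pairs of transcripts were counted in the same cells. Mbp and Pmp22 were found together in 53 YFP- cells and 188 YFP+ cells, where UMIs in proportion to depth would give 156 and 428. The value by depth spreads all UMIs of a gene over cells, including those that lay in a few cells. It therefore assumes more cells with each gene than were found. In YFP- it assumes 264 with Mbp and 541 with Pmp22, against 134 and 359. A count of pairs below it is thus no sign that the transcripts avoid each other. Of the 53 and 188 cells, 45 and 147 were not Schwann-positive, where depth would give 62.1 and 198. Prx and Mag met in 1 YFP- cell and 5 YFP+ cells, where depth would give 0.418 and 1.31, and in none that was not Schwann-positive, where depth would give only 0.107 and 0.385. Prx was found with Mbp in 7 of its 10 YFP- cells and 26 of its 47 YFP+ cells, where depth would give 5.44 and 20.7. Mag was found with Mbp in 4 of its 19 YFP- cells and 12 of its 56 YFP+ cells, where depth would give 6.04 and 16.7. Outside the Schwann-positive cells, Prx and Mbp met in 1 YFP- cell and 3 YFP+ cells, against 0.816 and 4.47 by depth. Mag and Mbp met there in 2 and 5 cells, against 2.91 and 9.26.

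The genes with the highest level in cells with a UMI of a myelin transcript, as a log2 ratio to cells without one and with both libraries summed, were mostly Schwann cell genes. For Mbp, 4 of the 5 nearest genes are reported here. They were Mal at a log2 ratio of 4.47, Ncmap at 4.46, the tetraspan membrane protein gene Pllp at 4.45 and the metallothionein gene Mt3 at 4.36. For Pmp22 they included Pllp at 3.45, Mal at 3.24 and Cldn19, a claudin of Schwann cell junctions, at 3.10. For Prx they included Ncmap at 7.36, Cldn19 at 7.08 and Ugt8a, an enzyme of myelin lipid synthesis, at 7.01. For Mag they included Mal at 4.95, Gpm6b, a gene of the proteolipid protein family, at 4.07 and Pllp at 3.98. Those for Mag rested on few UMIs in the cells with Mag, 33 of Mal, 21 of Gpm6b and 20 of Pllp. Of the cells with Mag, 2 of 19 in YFP- and 7 of 56 in YFP+ were Schwann-positive. For Mbp these were 8 of 134 and 48 of 514, for Pmp22 9 of 359 and 44 of 1086, and for Prx 6 of 10 and 23 of 47. Mal, Ncmap, Pllp, Cldn19 and Ugt8a are among the 23 genes that define Schwann-positive cells. The ratios can therefore rest on these few cells and need not hold for most cells with Mbp or Pmp22, which was not tested. All ratios of this kind are descriptions over the cells of 2 libraries, with no test.

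Each of the 4 transcripts differed by less than 1.5-fold between the cells of the libraries as measured, with wide intervals for Prx and Mag. The log2 ratio of YFP+ over YFP- cells was 0.34 (interval 0.16 to 0.52) for Mbp and -0.15 (interval -0.26 to -0.03) for Pmp22. It was 0.47 (interval -0.22 to 1.19) for Prx and 0.05 (interval -0.63 to 0.76) for Mag. None of the 4 reached 1.5-fold in this comparison, while 3.83% of 9759 genes with at least 50 UMIs were at least 1.5-fold higher and 8.05% at least 1.5-fold lower in YFP+. For Pmp22 the direction turned without the highest cell of each library, a choice made after the values were seen, where its ratio was 0.049. It stayed negative without the Schwann-positive cells (-0.12), with cells weighted equally (-0.17) and with thinned cells (-0.24). The ratio of Mbp was 0.051 when cells were weighted equally, 0.63 without the Schwann-positive cells and 0.68 with at least 1000 UMIs per cell. That of Prx was 0.67 with at least 1000 UMIs and 0.96 without the highest cell of each library, so whether Mbp and Prx pass 1.5-fold depended on these choices.

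Free RNA was compared between the libraries too. In barcodes with 10 to 100 UMIs the log2 ratio of YFP+ over YFP- was 0.82 (interval 0.74 to 0.91) for Mbp, 0.45 (interval 0.33 to 0.57) for Pmp22, 0.81 (interval 0.40 to 1.24) for Prx and -0.25 (interval -1.18 to 0.72) for Mag. These values depended on the range of barcodes. With 20 to 50 UMIs, a range applied here after the values were seen, they were 0.34 (interval 0.20 to 0.47) for Mbp, 0.25 (interval 0.05 to 0.45) for Pmp22 and -0.25 (interval -0.81 to 0.35) for Prx. Mbp thus differed between the libraries by as much in that range as in cells. The libraries came from the same pool of nerves but were separate sort fractions and lanes with different numbers of cells, and these cannot be told apart from the YFP label.

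For reference, the GENCODE M21 span of Mbp (ENSMUSG00000041607) on GRCm38 is chr18:82475146-82585637 on the plus strand, a protein-coding gene with 16 annotated transcripts that overlaps a ribosomal protein pseudogene on the opposite strand.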

How the data were processed

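Single-cell libraries were made by the authors with the 10x Chromium v2 kit, and what was deposited is a matrix of UMI counts for genes and barcodes, not normalized and with no filter on barcodes. The authors mapped reads to GRCm38/mm10 with the cellranger pipeline, and the submitters' processing notes name Cell Ranger 3.0.2 and Seurat 2.2.0, whereas the study's methods give an earlier version of the pipeline. The release of the annotation is not given in the sources used here.

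The matrices were analysed in Python 3.11.15 (scipy 1.17.1, numpy 2.4.6, pandas 2.3.3, matplotlib 3.10.9). Cells were barcodes with at least 500 UMIs and 200 genes, with no removal of doublets. A level is the CPM of summed counts with exact Poisson 95% intervals, shares have exact Clopper-Pearson intervals, and log2 ratios add 1 CPM to both levels, with intervals conditional on the summed UMIs of the gene. Thinning drew 500 UMIs from each cell without replacement (seed 0). The ratio and its interval were tested on simulated data, with the sum of each gene drawn as an independent Poisson count. Such counts lack the unevenness over cells of the real UMIs, for which the intervals can be too narrow. A total of 3 counts, about the one-sided 95% limit for a count of 0, is 1.24 CPM for the cells of YFP- and 0.445 CPM for those of YFP+. The exact intervals used here reach 1.53 CPM and 0.547 CPM for a count of 0.

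The 4 genes and all gene lists were chosen with earlier results of these data known. The genes nearest to a transcript were up to 5 with at least 20 UMIs in cells holding it, by log2 ratio of cells with over cells without, and higher in each library. Some list genes are not reported here. Replicates were not available, so p-values were not computed. Alternatives covered depth, leaving out the 5% of cells with the most UMIs, mitochondrial share, shared barcodes, weighting and thinning. They also covered Schwann-positive cells, scaling, pseudocount, the free RNA range and the highest cell of each gene.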

Additional observations from a re-analysis of the deposited data

How the results depend on the processing

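No paired analysis was possible because each group is 1 library. Of 148 recomputed log2 ratios of the 12 reported, 109 stayed within the 95% interval of the reported value and 39 moved outside it. The sign changed in 3. That of Pmp22 between the libraries became 0.049 without the highest cell of each library, an alternative chosen after the values were seen; the ratio of Pmp22 over free RNA in YFP- was then -1.52. That of Mag between the libraries became -0.17 with thinned cells, and that of Mag over free RNA in YFP+ became 3.26, as given at the end of the list. For Mbp between the libraries, the ratio was 0.68 with at least 1000 UMIs, 0.051 with cells weighted equally, 0.086 with thinned cells and 0.63 without the Schwann-positive cells.

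The following are log2 ratios of cells over free RNA, YFP- first and YFP+ second. With at least 1000 UMIs they were -4.35 and -4.49 for Mbp and -1.50 and -2.11 for Pmp22. With cells weighted equally they were -2.79 and -3.56 for Mbp and -0.91 and -1.54 for Pmp22, and -2.88 for Prx in YFP+. With thinned cells they were -2.73 and -3.46 for Mbp, -0.92 and -1.61 for Pmp22 and -2.19 and -2.87 for Prx. Without the Schwann-positive cells they were -4.65 and -4.84 for Mbp, -1.92 and -2.49 for Pmp22 and -4.42 and -4.65 for Prx. With the median ratio set to 0 they were -4.00 for Mbp and -1.77 for Pmp22 in YFP+. With free RNA from 20 to 50 UMIs they were -3.94 and -3.94 for Mbp, and -1.42 for Pmp22 and -3.89 for Prx in YFP-. With free RNA from 2 to 9 UMIs they were -3.12 and -3.08 for Mbp and -1.07 and -1.23 for Pmp22, and -2.76 for Prx in YFP+. In that range no UMI of Mag was counted among 89573 in YFP+, so its 3.26 depends on the added 1 CPM and is no bound. The cause of the other shifts was not tested. The shares of cells with a UMI rose with depth, as printed beside the thinned ones. At 1000 UMIs, with 150 YFP- and 1184 YFP+ cells too shallow to enter, they were 5.47% and 7.95% for Mbp and 19.2% and 17.4% for Pmp22.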
